A study of Mus musculus with 3 samples.

Results

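The miR-290 to miR-295 cluster is a group of microRNA (miRNA) genes on mouse chromosome 7, and the DNA upstream of it holds one of the enhancer clusters known as super-enhancers in embryonic stem (ES) cells. The peaks described here are all rows of a deposited list of FLAG-Tex10 binding sites that overlapped chromosome 7 from 3170000 to 3270000 (genome build mm9) by at least 1 bp. There were 8 such peaks of 5189 in the list, or 0.154%. The members were selected on the positions of the called peaks, and the window itself was proposed with its peaks known, so their number, scores and spacing are given as a description, with no test.

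The study mapped Tex10, a nuclear protein also known from ribosome assembly, by chromatin immunoprecipitation and sequencing (ChIP-seq), which recovers DNA bound by or close to a protein. The cells were J1 mouse ES cells of 129SV strain that carried an ectopic 3xFlag-Tex10 transgene brought in by piggybac transposon vectors (called T10F10), grown on gelatin with serum and leukaemia inhibitory factor. The 3 libraries, 1 in each group and all from these transgenic cells, were an immunoprecipitation with FLAG antibody, another with normal mouse IgG as control, and input DNA. The FLAG library alone was analysed here, so no background value stands beside a peak, and there is no replicate. The tagged protein was expressed in addition to the cells' own Tex10, and the sources used here state neither the promoter that drove it nor whether the cells were 1 clone. The identity of the cells was not checked against marker genes, since a peak list holds no expression values.

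A super-enhancer is a dense group of enhancers bound by the master transcription factors of a cell type and by the Mediator coactivator, next to a gene of cell identity. In ES cells OCT4, SOX2 and NANOG occupy the enhancers upstream of the miR-290 to miR-295 cluster, whose miRNAs are processed from a shared primary transcript and are among the most abundant of these cells. Mature miRNAs guide Argonaute proteins to messenger RNAs mainly through the seed, bases 2 to 8 from the 5′ end, and lower the output of those messages. Members of this family favour rapid progression of the cell cycle in ES cells by lowering its inhibitors.

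The sequences below show what the genes next to these peaks encode. All 9 miRNA genes looked for were matched in a RefSeq table (GRCm38.p6), with 17 mature sequences of 21 to 24 bases. Mir292a, listed there as Mir292, was matched through its 5p arm, and its 3p arm was not analysed here. Among the arms analysed, the 3p arms of 5 genes (Mir290a, Mir291a, Mir291b, Mir294 and Mir295) have the bases AAGUGC at positions 2 to 7, the mark of the family, and are shown with the seed in capitals.
mmu-miR-290a-3p: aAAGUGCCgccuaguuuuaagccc
mmu-miR-291a-3p: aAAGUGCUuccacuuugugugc
mmu-miR-291b-3p: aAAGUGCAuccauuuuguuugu
mmu-miR-294-3p: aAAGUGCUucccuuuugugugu
mmu-miR-295-3p: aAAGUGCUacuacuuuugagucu

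The full seed AAGUGCU is shared by miR-291a-3p, miR-294-3p and miR-295-3p, and it pairs with AGCACUU in a target. Of 1738 mature mouse miRNAs in the table, 8 (0.460%) have AAGUGC at positions 2 to 7, and 5 of these 8 belong to the cluster, a count that leaves out miR-292a-3p. The other 3 are miR-302b-3p and miR-302d-3p, which have the seed AAGUGCU and come from another miRNA cluster of pluripotent cells, and miR-350-5p, which has the seed AAGUGCA of miR-291b-3p. They are shown for comparison. The table may lack further mature arms, so these counts hold for the table alone and not for all mouse miRNAs.
mmu-miR-302b-3p: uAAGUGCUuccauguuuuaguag
mmu-miR-302d-3p: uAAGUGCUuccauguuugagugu
mmu-miR-350-5p: aAAGUGCAugcgcuuuggg

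Past the seed the cluster's arms differ more. Between miR-294-3p and miR-291b-3p, 12 of 14 bases after position 8 are the same when aligned from the 5′ end without gaps. Between miR-294-3p and miR-295-3p, which have the same seed, 4 of 14 are the same. The 3p arm of Mir293 carries the bases AGUGC from position 1, whereas miR-290a-3p carries them from position 3, so miR-293-3p has the seed GUGCCGC, which no other miRNA in the table has.
mmu-miR-293-3p: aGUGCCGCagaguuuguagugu

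The 5p arms have other seeds. In the table, 6 mature miRNAs have CUCAAA at positions 2 to 7, and all 6 are 5p arms from the cluster. Of the other cluster 5p arms, miR-291a-5p and miR-291b-5p have the seed AUCAAAG and miR-290b-5p has CUUAAAA. The seed CUCAAAC is found in 3 mature miRNAs of the table, the 5p arms of Mir290a, Mir292a and Mir293, shown here.
mmu-miR-290a-5p: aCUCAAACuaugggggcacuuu
mmu-miR-292a-5p: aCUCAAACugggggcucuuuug
mmu-miR-293-5p: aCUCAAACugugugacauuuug

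Of the 9 genes, 7 lie on the plus strand and 2, Mir290b and Mir292b, on the minus strand. The hairpin of Mir290b (58 bases) is the reverse complement of bases 13 to 70 of the Mir290a hairpin (83 bases). That of Mir292b (62 bases) is the reverse complement of bases 10 to 71 of the Mir292a hairpin (82 bases). In each pair the DNA is therefore the same, and a ChIP-seq peak, which has no strand, cannot be assigned to 1 gene of the pair.

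In the gene order of GRCm38.p6, the nearest protein-coding gene before the cluster is AU018091 and the nearest gene of any kind is the pseudogene Gm3375. Nlrp12, a gene of the NLR family of innate immunity on the opposite strand, and the long non-coding RNA D7Ertd143e overlap the cluster, and each spans 7 of the 9 miRNA genes (all but Mir290a and Mir290b). Myadm, which encodes a membrane protein, is the next protein-coding gene after it. These positions belong to another build than the peaks and were used only for the order of the genes.

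The promoter window of D7Ertd143e, 250 bases before its annotated start and 50 after, is shown because it contains the whole Mir290a hairpin, marked in capitals (bases 93 to 175 of 300). RefSeq places it at chr7:3218534-3218833 on the plus strand of GRCm38.p6, a position that was not converted to mm9 and cannot be set against the peaks.
D7Ertd143e: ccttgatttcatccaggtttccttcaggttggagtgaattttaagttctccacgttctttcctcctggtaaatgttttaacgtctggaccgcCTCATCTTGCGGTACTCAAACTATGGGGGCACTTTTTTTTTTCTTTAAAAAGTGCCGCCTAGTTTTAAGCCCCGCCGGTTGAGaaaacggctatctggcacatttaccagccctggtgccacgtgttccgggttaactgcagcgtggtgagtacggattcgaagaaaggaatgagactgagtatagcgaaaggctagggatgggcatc

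Mir290a therefore lies before the annotated start of this RNA. On both strands, the E-box CACGTG occurs once, at bases 212 to 217, and 7.15% of 32851 promoter windows of the same length hold it. The TATA motif TATAAA (13.6% of windows) and the octamer ATGCAAAT (1.74% of windows) have 0 matches here. The motifs were chosen with the sequence in view.

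The 8 peaks formed an array that ran up to the miRNA genes and ended there. They spanned 25.7 kb, from 3193483 to 3219224, which is 25.7% of the window. The miRNA genes begin at about 3218000 by the rule that defines the window. Of the 8 peaks, 6 lay wholly before this position, the farthest starting 24.5 kb away, 1 lay across it, and 1 lay past it. The position is approximate, and the peak across it ended at 3218152, so the place of that peak relative to the genes is uncertain. The window held no peak in its first 23.5 kb or in its last 50.8 kb.

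In order along the chromosome the peaks are numbered 1 to 8 here. Each has a score, the authors' own value per peak, of unstated scale, which serves only to rank peaks within this list. Peak 1, at chr7:3193483-3193706, was the outermost, with a score of 5.25 and a width of 224 bp, the narrowest width in the list and that of 606 peaks (11.7%). Its score was close to the list's median of 5.22, with 49.6% of all peaks scoring higher.

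Peaks 2, 3 and 4 followed after a gap of 7.45 kb, and this trio held the strongest sites of the array. Peak 2, at chr7:3201156-3201673, scored 13.4 over 518 bp, and 8.36% of peaks scored higher. Peak 3, at chr7:3203913-3204329, scored 6.76 over 417 bp, a score that 93 peaks of the list share exactly.

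Peak 4, at chr7:3206388-3207107, had the highest score of the 8, 19.7, and the largest width, 720 bp. It ranked 218 of 5189 by score, and 2.91% of peaks were wider. Its centre lay 11.3 kb before the stated start of the miRNA genes and 5.33 kb from that of peak 2, the second strongest. The sites with the highest scores in this window thus lay before the stated start of the miRNA genes. Whether they coincide with enhancers there was not examined, since no enhancer positions were used.

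Peaks 5 to 8 made up the part nearest to the genes, after a gap of 5.06 kb. Peak 5, at chr7:3212167-3212417, was the weakest of the 8, with a score of 3.85 over 251 bp, and 74.0% of all peaks scored higher. Peak 6, at chr7:3213509-3213990, lay 1.09 kb further on and scored 7.89 over 482 bp. These 2 neighbours differed in both measures, the second being wider and stronger.

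Peak 7, at chr7:3217475-3218152, lay across the stated start of the miRNA genes and scored 6.35 over 678 bp. Peak 8, at chr7:3218983-3219224, was the only one wholly past that start and scored 8.77 over 242 bp. Only 0.830 kb separated them, the smallest of the 7 gaps, which had a median of 2.24 kb. Peak 7 was the second widest of the 8 but sixth by score, and peak 8 the second narrowest but the third by score.

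**Figure D1:**
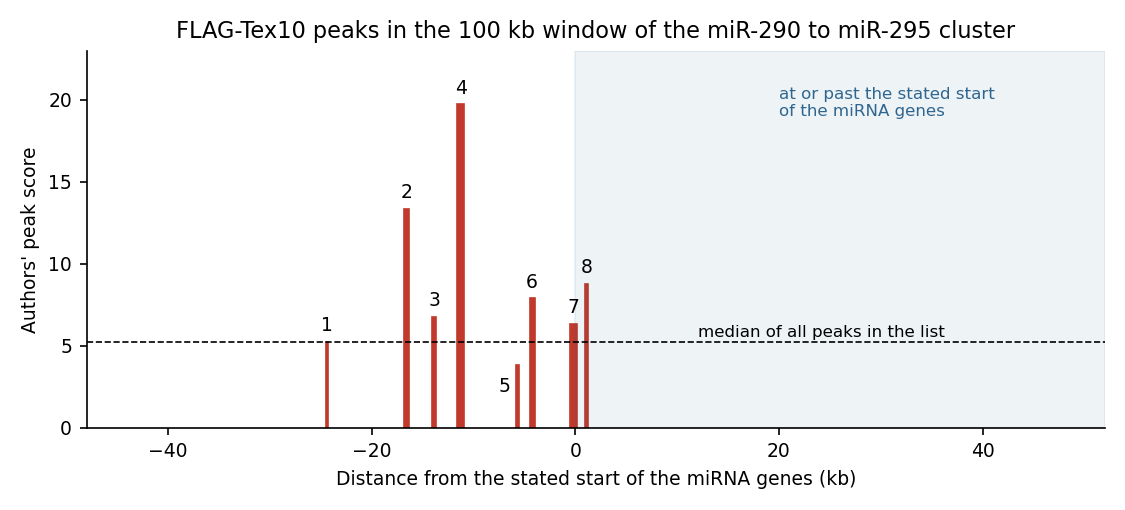
Position and score of the 8 FLAG-Tex10 peaks. The x axis gives the distance in kb from the stated start of the miRNA genes, the y axis the authors' score, each bar is 1 peak drawn at its width, the dashed line is the median of the list (5.22) and the shaded area lies at or past the stated gene start. The strongest peaks, 4 (19.7) and 2 (13.4), stand before the gene start, and no peak lies further than peak 8 on the gene side.

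The map of the window shows that 7 of the 8 peaks reached above the median of the list. The share of all peaks above that median is 50% by its definition. Scores above the upper quartile of the list, 7.73, were reached by 4 of the 8 (peaks 2, 4, 6 and 8), against 24.9% of all peaks. Scores of at least 10 were reached by 2 of the 8, against 14.5% of all peaks. None of the 8 was among the extreme sites of the list, whose scores ran to 432. The median score of the 8 was 7.33.

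The peaks also differed in width. The median of the 8 was 449.5 bp, against 314 bp in the list, and 5 of the 8 exceeded the upper quartile of 402 bp, against 24.8% of all peaks. Peaks of at least 600 bp numbered 2 of the 8, against 6.19% in the list. The remaining 3 (peaks 1, 5 and 8) were at most 251 bp, below the list's lower quartile of 253 bp. In the list, 1238 of 5189 peaks were at most 251 bp wide. None of the 8 had a width between 251 and 417 bp, but 8 widths are too few to separate kinds of peak.

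Width and score went together less than perfectly. Spearman's correlation was 0.55 across the 8 peaks and 0.37 across the whole list, as a description, since all peaks come from 1 library and neighbours are not independent. With only 8 points, the order of a few peaks sets this value. The plot of width against score places peaks 2 and 4 towards the upper right, peaks 1 and 5 towards the lower left, and peaks 7 and 8 off that diagonal.

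**Figure D2:**
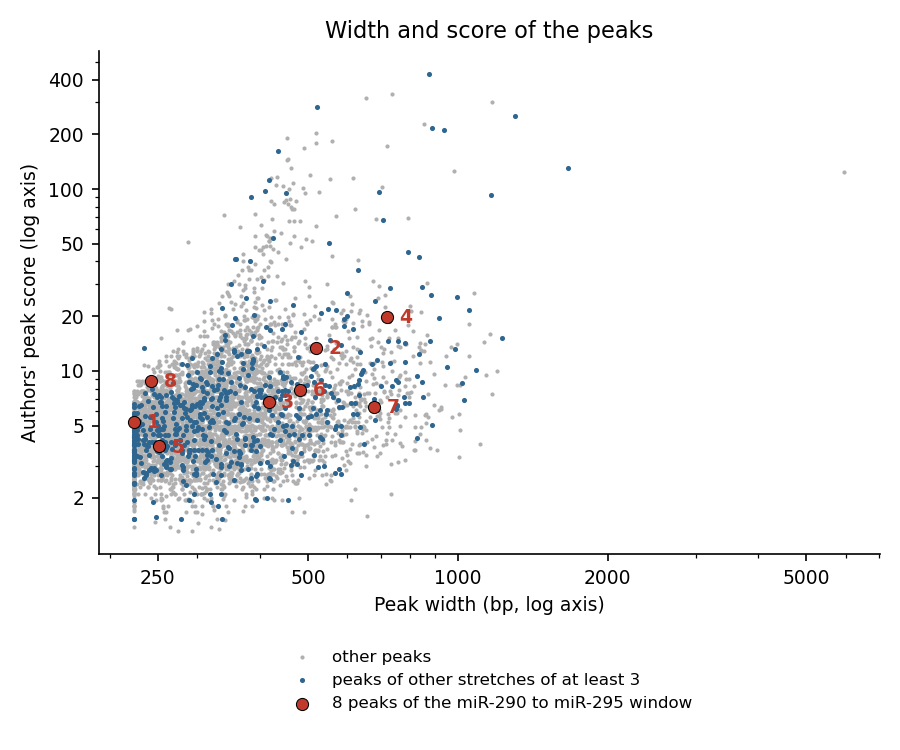
Width and score of each peak on the autosomes, X and Y, both on log axes, with the 8 numbered peaks in red, peaks of other stretches of at least 3 in blue and all others in grey. Peak 8 (242 bp, score 8.77) lies at the upper edge of the narrow peaks. Peak 7 (678 bp, score 6.35) lies below the median score of peaks at least 600 bp wide (8.33).

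In the whole window the peaks covered 3532 bp, or 3.53% of 100 kb, which was 51.1 times the share of the assembled genome that peaks cover (0.0691%). The window makes up 0.0656% of the length of chromosome 7 and held 8 of its 303 peaks (2.64%). No peak of chromosome 7 lay before the window, but how much of the sequence there can take reads was not examined. The first peak beyond it, at chr7:3348112-3348438, lay 78.1 kb past its end and 129 kb past peak 8, with a score of 7.97 over 327 bp. The array was therefore set apart from other peaks on the gene side, and moving the limits of the window by 50 kb added no peak to it.

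Such a number of peaks within 100 kb was rare in the list. The assembled chromosomes were divided into windows of 100 kb, and of the 26556 that did not overlap the one described here, 3 held more than 8 peaks and 6 held 8, together 0.0339%. The mean was 0.195 peaks per window, and 13.7% of windows held any peak. Each of the 8 peaks had the other 7 within 50 kb of its centre and no further peak. Across the list 98 of 5189 peaks (1.89%) had at least 7 others that near. These values describe a window that was picked for its peaks. It does not lie on the grid of the other windows, which places peak 1 and peaks 2 to 8 in different windows. Its count was therefore not taken in the same way as theirs.

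Peaks less than 12500 bp apart were also joined into stretches. The 8 peaks then made up 1 stretch, one of 161 in the list with at least 3 peaks, and only 3 stretches held more. Those 3 lay on chromosome 9 (19 peaks), chromosome Y (18) and chromosome 8 (10). As many as 8 peaks were also found in stretches at chrX:93130748-93152308, chrY:2779656-2794646 and chr9:110848091-110863061. A further 2 stretches held 7 peaks, at chr10:62347065-62361157 and chr8:109123541-109145798.

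Among the 156 autosomal stretches, the array upstream of miR-290 was long and had wide peaks, but it was not dense by peaks per 10 kb of its length. It was the fifth longest, at 25.7 kb against a median of 8.87 kb, and its peaks covered the third largest total length. By median peak width it ranked 25, and by median score, 7.33 against a median of 5.36, it ranked 32. By its highest score, 19.7 against a median of 8.54, it ranked 20. By peaks per 10 kb, 3.11 against a median of 3.80, it ranked 102. Only 50 of the 156 held at least 4 peaks, and in a stretch of 3 peaks a short length gives a high value of this measure.

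Beside the other 8 stretches with at least 7 peaks, on all chromosomes, its peaks were the widest by median, 449.5 bp against 298 to 409.5 bp. It had 3.11 peaks per 10 kb of its length, against 3.14 to 5.34 in those stretches. Its median score of 7.33 was below that of 3 of them, the stretches on X (126), near the start of chromosome 9 (19.5) and on chromosome 10 (8.04). The other 5 had median scores from 4.87 to 6.80. These ranks are a description with no test.

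**Figure D3:**
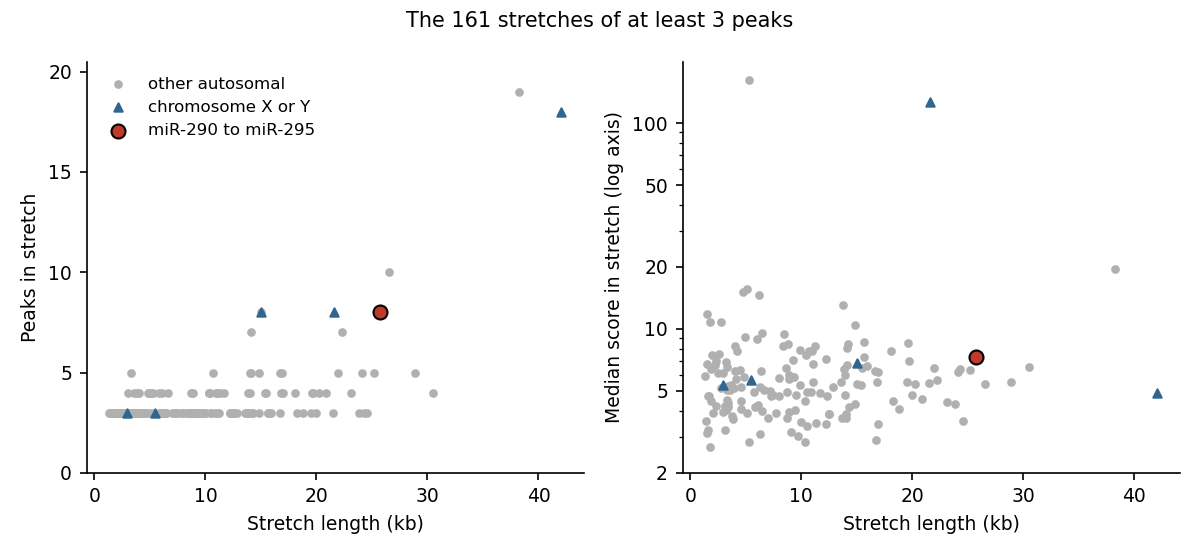
Number of peaks (left) and median score on a log axis (right) against the length in kb of each of the 161 stretches of at least 3 peaks, 1 point per stretch. The stretch of the miR-290 to miR-295 window (red) has 8 peaks over 25.7 kb and a median score of 7.33. A stretch of 8 peaks on chromosome 9 lies behind a triangle at 15.0 kb.

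The 8 peaks, with a median score of 7.33 and a median width of 449.5 bp, were set beside the 556 peaks of the other autosomal stretches of at least 3, whose median score was 5.52 and median width 334 bp. The 3618 single autosomal peaks had a median score of 5.14 and a median width of 310 bp. A score of at least 10 was reached by 16.2% of the former and 14.2% of the latter. With 8 peaks from 1 place, these medians were not compared by a test.

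How far apart peaks may lie and still be joined decided whether the array was 1 unit. With peaks less than 5 kb apart joined there were 3 pieces, which were peak 1 alone, peaks 2 to 4 over 5.95 kb and peaks 5 to 8 over 7.06 kb. The latter 2 pieces had nearly equal covered lengths, 1655 and 1653 bp, but median scores of 13.4 and 7.12. At 6 kb these 2 joined into 7 peaks over 18.1 kb, and from 8 kb up all 8 were joined. From there to 30 kb nothing further was added. At 1 kb there were 7 pieces.

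**Figure D4:**
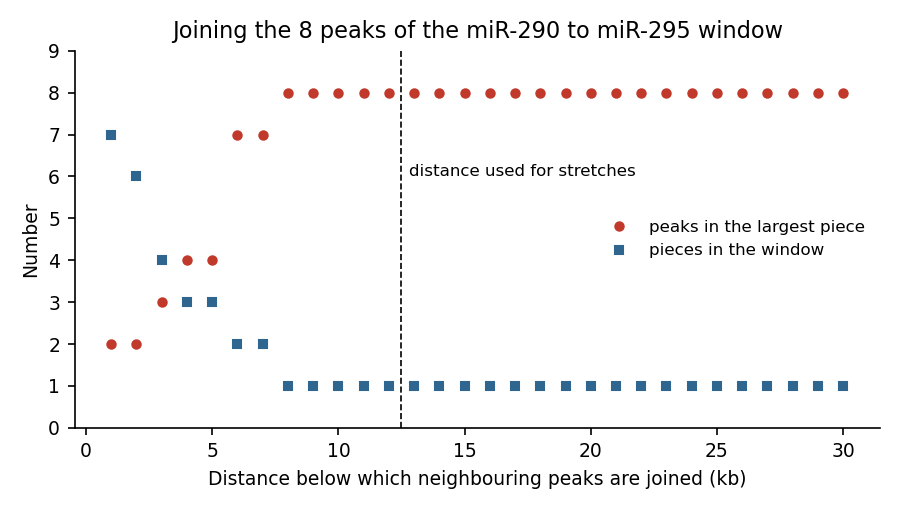
Number of pieces into which the 8 peaks fall (blue squares) and number of peaks in the largest piece (red circles) against the distance in kb below which neighbouring peaks are joined, in steps of 1 kb. From 8 kb to 30 kb all 8 peaks form 1 piece, and at 5 kb there are 3 pieces with at most 4 peaks.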

How the data were processed

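The deposited file is a list of peaks of the FLAG library in J1 cells, with chromosome, start, end, name and a score for each peak; the authors deposited the score with no header. The submitters' processing notes name mm9 as the build and, without saying what each did, the tools bedtools 2.18.1, SAMtools 0.1.19, Bowtie 1.0.0 and FastQC 0.10.1. The peak caller, its control and its threshold are not given in the sources used here. Peaks were necessarily called on 1 immunoprecipitation library. Since no read numbers are in it, the depth is unknown and no interval that needs it is given. Sites below the caller's threshold are not in the list.

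Peaks overlapping the window by at least 1 bp were taken, and starts are given 1-based. Stretches joined peaks less than 12500 bp apart, and windows of 100 kb were counted from position 1 of each chromosome, with each peak placed by its centre. Chromosome lengths came from GenomeInfoDb 1.38.1 under R 4.3.3, and the rest used Python 3.11.15, numpy 2.4.6, pandas 2.3.3, scipy 1.17.1 and matplotlib 3.10.9. Full lengths were used for the shares of length and the number of windows, with no allowance for unsequenced bases. The functions were tested on simulated lists with planted stretches. The window, the gene list and the alternatives were chosen with earlier results of these data known. All peaks of the window were named, with the miRNA genes of the cluster, miRNAs sharing their seeds, neighbouring genes, the nearest outside peak, and stretches of at least 7 peaks. D7Ertd143e, its promoter, the motifs and miR-350-5p fall outside that rule and were chosen after their sequences were seen. Sequences came from RefSeq tables of GRCm38.p6 and were not placed on mm9. No mm9 sequence was used, so no motif was searched in the peaks.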

Additional observations from a re-analysis of the deposited data

How the results depend on the processing

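The number of peaks stayed at 8 by peak centre and with the window widened by 50 kb on both sides, and was 7 with only peaks above the list's median score. Joining peaks less than 500 bp apart, or taking the stretch alone, could not change the number or the median score of 7.33, since the smallest gap was 0.830 kb and the stretch holds all 8 peaks. The rank of the window by peak number was 4, tied with 6 other windows. It was also 4 in all 3 alternatives (windows shifted by 50 kb, only peaks above the median score, close peaks joined). The shift moved only the other windows, and joining could not change the count of this window, so these alternatives test the rank weakly. The length of the stretch, 25.7 kb, was the same with peaks less than 25 kb apart joined and 7.06 kb with 5 kb, since 2 gaps exceed that distance. The share of all peaks with at least as many others near them was 1.89% within 50 kb, 1.48% within 25 kb and 3.20% within 100 kb, as a wider distance takes in more peaks. The covered share of the window, 3.53%, was 3.28% with only peaks above the median score. No paired analysis was possible because only the FLAG library entered and it has no replicate. Without a replicate, no library could be left out, and unknown depth limits which weak sites appear.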

Other observations

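In the pair of peaks next to the miRNA genes, peak 8 scored high among peaks up to 251 bp wide. Peak 7 scored below the median of peaks of at least 600 bp. This contrast was chosen after the values were seen and was not tested. Neither class is matched in width to its peak. The narrow class holds the 606 peaks of 224 bp, which are narrower than peak 8. Peaks of at least 600 bp were 6.19% of the list, and 3.85% of the list was wider than peak 7. Width and score were correlated in the list (Spearman 0.37). Peak 8 (242 bp, score 8.77) was narrow and high: of the 1238 peaks of the list up to 251 bp wide, 12 (0.969%) scored higher, and their median score was 4.16. In the whole list 18.3% of peaks scored higher than peak 8. Peak 7 (678 bp, score 6.35) was wide and modest: of the 321 peaks of at least 600 bp, 219 (68.2%) scored higher, and their median score was 8.33. Peak 4 was high by both measures, since 4.18% of all peaks scored higher and 2.91% were wider.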
